A study of Mus musculus with 222 samples.

Results

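Expression of 9 genes that mark the basal, or myoepithelial, layer of the mammary gland was followed across mammary tumors of MMTV-ErbB2 mice and normal mammary glands: the keratin genes Krt5, Krt14 and Krt17, the transcription factor gene Trp63, the contractile genes Acta2, Myh11, Cnn1 and Mylk, and the oxytocin receptor gene Oxtr. They were chosen by name, as known markers, with earlier results of these data known. Each was read by the probe set that carried its symbol alone, and each had 1 such probe set. They are 9 of the 19938 genes that could be read in this way, on arrays of 35556 probe sets. The samples were 214 tumor arrays and 8 arrays of normal glands (Affymetrix mouse gene 1.0 ST), each from 1 whole tumor or gland, so that fewer basal cells and less RNA per basal cell cannot be told apart in any value below. All tumors arose in mice that carry the ErbB2 transgene under the MMTV promoter, which is active mainly in the mammary epithelium. Their genetic backgrounds were F1BX (160 arrays, backcross of F1 to FVB), F1 (28 arrays, C57BL/6 crossed with FVB/N) and FVB (26 arrays). The normal glands came from FVB MMTV-ErbB2 mice (3), F1 MMTV-ErbB2 mice (2) and F1 wild type mice (3), so 5 of the 8 glands also carried the transgene, and no wild type FVB gland was among them. Neither the age of the gland mice nor the way the glands were collected was found in the sources used here, and whether each gland came from a different mouse was not found either. The p-values between glands therefore measure the spread between these arrays.

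The mammary epithelium has an inner luminal layer, which makes milk, and an outer basal layer of myoepithelial cells, which contract and push the milk out. Basal cells hold a cytoskeleton of the keratins 5, 14 and 17, depend on the transcription factor p63 (Trp63), and carry the actin, myosin and regulators of smooth muscle. Oxytocin binds its receptor on these cells during suckling and sets off the contraction. Tumors of MMTV-ErbB2 mice are known as luminal tumors.

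The values were log2 expression levels, and the arrays divided by the spread of their values. In 34 arrays (20 F1BX and 6 F1 tumors and all 8 glands), the narrow set, the interquartile range of the values lay between 1.86 and 2.62. In the other 188, the wide set (140 F1BX, 22 F1 and 26 FVB tumors), it lay between 3.04 and 3.35. The sources used here do not say what divides the sets, so tumors were compared with glands within the narrow set, and the backgrounds within each set. By its name, the tumor 035T1 was on both, with Krt5 at 7.99 on the narrow-set array (035T1R) and 10.03 on the wide-set array, although Myh11 was 7.24 and 7.16, and 20.2% of all probe sets differed by at least 1 log2 unit between these arrays. For 246T1, also named with and without the R, the share was 10.2%, with Krt5 at 6.26 on the narrow-set array and 6.25 on the wide-set array. Erbb2 followed the labels in most arrays, with 8.32, 12.31 and 12.6 as the lowest, median and highest narrow-set tumor, 9.05 to 10.48 in MMTV-ErbB2 glands and 8.27 to 8.35 in wild type glands. The narrow-set tumors 092T1 (8.32), F1_26T1 (9.72) and 076T1 (10.31) and the wide-set tumor 168T1 (9.32) were low. In 092T1 and 168T1 the epithelial gene Epcam was also lowest of its set, at 6.39 and 6.49. The luminal keratin gene Krt8 was at 11.58 to 13.27 in the glands, and the adipocyte gene Adipoq was at 5.47 to 6.08, near its median of 5.84 in the narrow-set tumors. The mean of 5 adipocyte genes was 7.12 to 7.72 in the glands, with a median of 6.77 in the narrow-set tumors (6.38 to 8.98). The array of FVB MMTV-ErbB2 gland 3 stood apart, with the smallest interquartile range of all (1.86). Among the glands it was highest in the skin genes Krt10 (7.42, median 6.46), Lor (7.31, 6.33) and Krtdap (7.05, 5.83). It was lowest in Epcam (10.41, 11.76), the pericyte gene Rgs5 (8.68, 10.91) and the endothelial gene Pecam1 (8.30, 10.55). Among the MMTV-ErbB2 glands it was highest in Krt14 (11.12), Krt17 (9.73) and Trp63 (8.23) and lowest in Acta2 (10.61). The part of skin in these levels was not tested.

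Among the narrow-set arrays, 8 of the 9 genes had a lower mean in the 26 tumors than in the 8 normal glands, and 7 of them passed the test (limma, an FDR of 0.005 or less together with at least a 2-fold difference), where 4.76% of all probe sets passed as lower. The median log2 fold change of the 9 genes was -1.73, against -0.09 over all probe sets. The largest decreases were those of the smooth muscle myosin gene Myh11 and the basal keratin gene Krt14. Trp63 fell by less than 2-fold, and Oxtr did not pass the test.

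Krt14, the keratin that pairs with keratin 5 in basal cells, had a lowest, median and highest level of 6.51, 7.16 and 12.01 in tumors, against 8.45 and 9.66 in F1 MMTV-ErbB2 glands, 8.53, 9.17 and 11.12 in FVB MMTV-ErbB2 glands, and 12.04, 12.14 and 12.15 in wild type glands. Tumors and glands overlapped, since 3 tumors reached the level of the lowest gland or more. The difference was -2.81 on the log2 scale (SE 0.546, limma adjusted p = 5.15e-05). Krt5 had a lowest, median and highest level of 6.26, 6.72 and 12.29 in tumors, against 8.15 and 9.28 in F1 MMTV-ErbB2 glands, 7.76, 8.70 and 9.05 in FVB MMTV-ErbB2 glands, and 10.99, 11.08 and 10.47 in wild type glands. Its highest tumor was above every gland, and its spread was the widest of the 9 genes in tumors (7.36 ± 1.63, SD, n = 26, against 9.44 ± 1.27, SD, n = 8, in glands). The difference was -2.07 on the log2 scale (SE 0.598, limma adjusted p = 0.00405). This call was the least stable of the 7, and was lost without F1 MMTV-ErbB2 gland 2, FVB MMTV-ErbB2 gland 3 or any 1 of the wild type glands (adjusted p = 0.00600 to 0.0143, limma), although the log2 fold change stayed between -2.13 and -1.84. It was also lost without the arrays 035T1R and 246T1R (-2.05, limma adjusted p = 0.00593). Without the 3 tumors of lowest Erbb2, a choice made after seeing the data, the Krt5 difference was -2.45. The 3 include its 2 highest tumors, so a larger difference follows from leaving them out and is no support for the call. Krt17, a keratin of basal cells that is also induced in stressed epithelium, had a lowest, median and highest level of 5.59, 6.02 and 9.24 in tumors, against 6.84 to 9.73 in MMTV-ErbB2 glands and 9.84 to 10.56 in wild type glands. No tumor reached a wild type gland, and 6 reached the lowest MMTV-ErbB2 gland. Its difference was -2.56 on the log2 scale (SE 0.414, limma adjusted p = 3.01e-06).

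Trp63, which encodes the p63 protein that basal cells need, averaged 7.40 ± 0.36 in tumors (SD, n = 26) and 8.07 ± 0.58 in glands (SD, n = 8). Its values ran from 6.86 to 8.47 in tumors, against 7.26 to 8.23 in MMTV-ErbB2 glands and 8.37, 8.79 and 8.82 in wild type glands, and 16 of the 26 tumors reached the lowest MMTV-ErbB2 gland. The difference of -0.67 (SE 0.164, limma adjusted p = 8.27e-04) was under the required fold. With all arrays of both sets it was -1.18 and passed (limma adjusted p = 2.11e-14), but all glands are in the narrow set. The median of Trp63 in tumors was 7.35 in the narrow set and 6.76 in the wide set. With the array set as a term in the fit, Trp63 was not called.

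The contractile genes fell together, with the decrease of each called. Myh11 was the only one of the 9 genes of which every tumor was below every gland, a separation that 1.76% of all probe sets showed. It had a lowest, median and highest level of 6.69, 7.12 and 8.33 in tumors, against 8.80 and 9.85 in F1 MMTV-ErbB2 glands, 8.44, 9.10 and 9.91 in FVB MMTV-ErbB2 glands, and 11.42, 11.38 and 11.65 in wild type glands. The difference was -2.88 on the log2 scale (SE 0.258, limma adjusted p = 1.67e-11). Cnn1 encodes calponin, which binds actin and restrains its interaction with myosin. It averaged 6.57 ± 0.20 in tumors (SD, n = 26) and 8.22 ± 1.44 in glands (SD, n = 8), a difference of -1.65 on the log2 scale (SE 0.269, limma adjusted p = 3.51e-06). The glands were themselves divided, with 6.66 to 8.17 in the MMTV-ErbB2 glands and 9.71, 9.87 and 10.01 in the wild type glands, and the tumors, at 6.29 to 7.17, overlapped only with the MMTV-ErbB2 glands. Mylk encodes the kinase that phosphorylates the myosin light chain and so starts contraction. It averaged 7.76 ± 0.22 in tumors (SD, n = 26) and 8.84 ± 0.72 in glands (SD, n = 8), a difference of -1.08 on the log2 scale (SE 0.152, limma adjusted p = 2.47e-07), just over the required fold, and the call was lost without wild type gland 3 (-0.92). Acta2, the smooth muscle actin gene, was expressed in tumors over a wide range, with a lowest, median and highest level of 7.86, 10.20 and 11.57, against 11.18 and 12.25 in F1 MMTV-ErbB2 glands, 10.69, 11.62 and 10.61 in FVB MMTV-ErbB2 glands, and 12.46, 12.88 and 12.95 in wild type glands. In 8 of the 26 tumors it was at or above the lowest gland. The difference was -1.73 on the log2 scale (SE 0.334, limma adjusted p = 4.69e-05).

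Oxtr, the receptor gene, did not pass the test. It averaged 7.64 ± 0.63 in tumors (SD, n = 26) and 7.62 ± 0.37 in glands (SD, n = 8), a log2 fold change of 0.03 (95% confidence interval -0.43 to 0.49, adjusted p = 0.924 from limma). The tumors ran from 6.68 to 8.72, on both sides of the glands, which ran from 7.00 to 8.06. The sign of so small a difference changed between alternatives, whereas its interval leaves out a 2-fold difference either way.

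**Figure D1:**
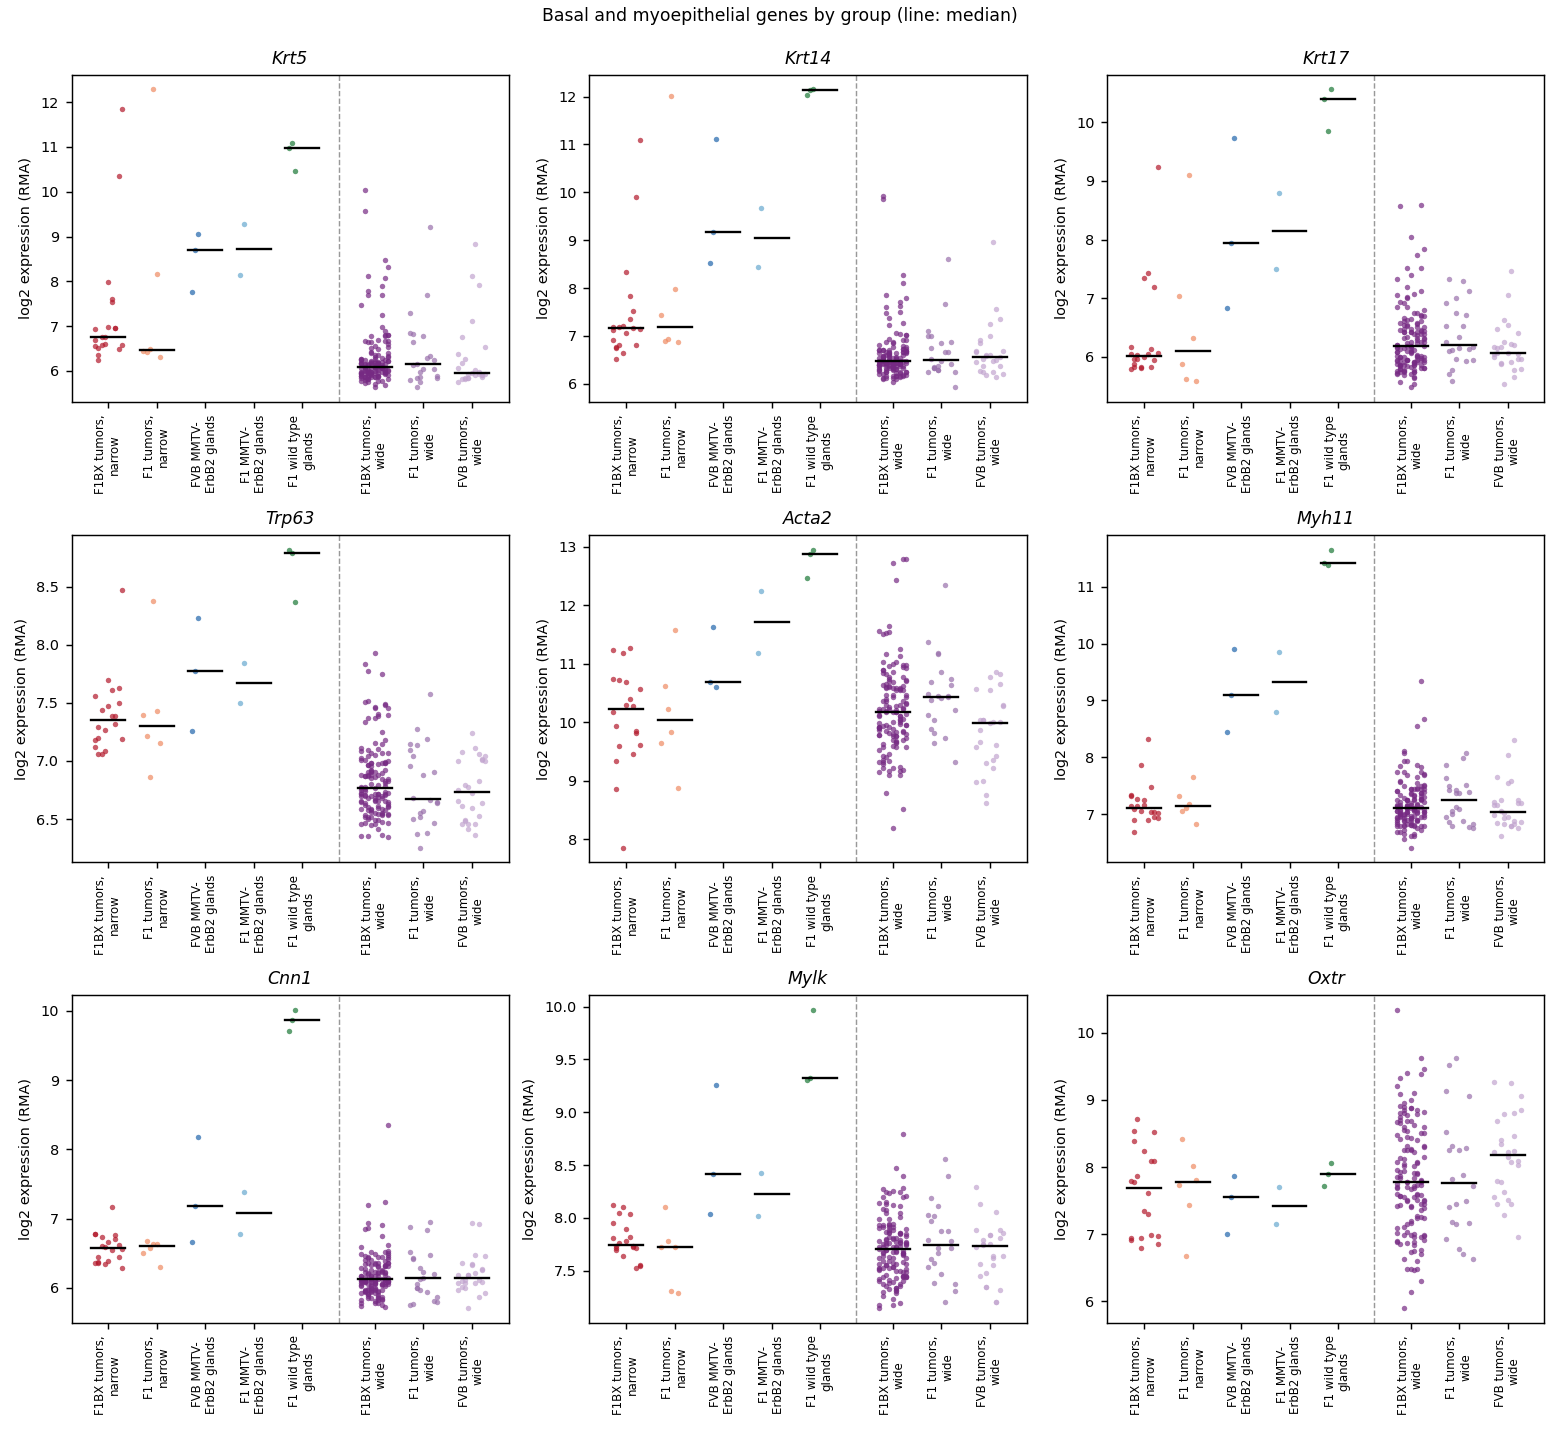
Log2 expression (y axis) of the 9 genes in each tumor and gland (1 point per array), by group (x axis), with the median of each group as a line. The narrow-set arrays are left of the dashed line and the wide-set tumors right of it. Myh11 has every narrow-set tumor (at most 8.33) below every gland (at least 8.44), while Oxtr has both tissues over the same range.

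The glands were not uniform, and the size of the differences depended on which glands were used. All 9 genes were lower in both F1 MMTV-ErbB2 glands than in all 3 F1 wild type glands, an order that 17% of all probe sets had. Over all 5 MMTV-ErbB2 glands, 8 of the 9 genes (all but Oxtr) were below every wild type gland, against 4.14% of all probe sets. The log2 differences, F1 MMTV-ErbB2 minus F1 wild type, were -3.05 for Krt14 (standard error 0.689), -2.79 for Cnn1 (0.425), -2.16 for Myh11 (0.454), -2.13 for Krt5 (0.460), -2.12 for Krt17 (0.756), -1.31 for Mylk (0.393), -1.05 for Acta2 (0.416), -0.99 for Trp63 (0.325) and -0.46 for Oxtr (0.314). None passed at an adjusted p under 0.05 in limma, nor did any probe set of the array (0%), although 8 of the 9 had an unadjusted p under 0.05, as 1726 of the 35556 probe sets did. The smallest adjusted p was 0.382, for Cnn1. Without FVB MMTV-ErbB2 gland 3, which belongs to neither group but enters the estimate of the spread, the differences are the same and 6 genes passed as lower (limma): Cnn1 (adjusted p = 0.00389), Krt14 (0.00697), Myh11 (0.0153), Krt5 (0.0253), Mylk (0.0330) and Krt17 (0.0386), where 1.01% of all probe sets did. The calls in this comparison thus rest on whether that array is used.

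Beside these differences, the luminal list (Krt8, Krt18, Krt19, Epcam, Cldn3, Cldn7, Elf5 and Kit) had a median log2 difference of -1.07, with 7 of its 8 genes lower in F1 MMTV-ErbB2 glands. The mean level of this list was 9.73 and 10.55 in F1 MMTV-ErbB2 glands, 9.56 to 9.91 in FVB MMTV-ErbB2 glands and 11.05 to 11.58 in wild type glands. The lists of endothelial, fibroblast and skeletal muscle genes had medians of 0.47, 0.43 and 0.66 and the other lists of -0.35 to -0.02, except the hemidesmosome list at -1.14 and the smooth muscle list at -0.70, against -0.02 over all probe sets. The part of the amount of epithelium in the differences was not tested. Between FVB and F1 MMTV-ErbB2 glands, 0 of the 9 genes passed (limma, 0 at an unadjusted p under 0.05, and 0% of all probe sets called, 481 at an unadjusted p under 0.05), with differences from -0.74 for Acta2 to 0.55 for Krt14. These differences depended on single arrays, with a highest of 0.01 and 8 of the 9 negative without FVB MMTV-ErbB2 gland 3, -1.28 to 0.14 without F1 MMTV-ErbB2 gland 1, -0.21 to 1.16 without F1 MMTV-ErbB2 gland 2 and -0.60 to 1.09 without FVB MMTV-ErbB2 gland 1.

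Set against the 5 MMTV-ErbB2 glands alone, the narrow-set tumors were lower for the same 8 genes, by less. Krt17 and Myh11 passed, where 4.65% of all probe sets did as lower. Myh11 fell by 2.03 on the log2 scale, while Cnn1 had a difference of -0.66 and Mylk of -0.67, both under 2-fold, and Krt5 of -1.23 (adjusted p = 0.153 from limma). The median of the 9 genes was -1.17. With F1 tumors and F1 glands only, Acta2, Myh11 and Mylk passed (background 4.25%).

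**Figure D2:**
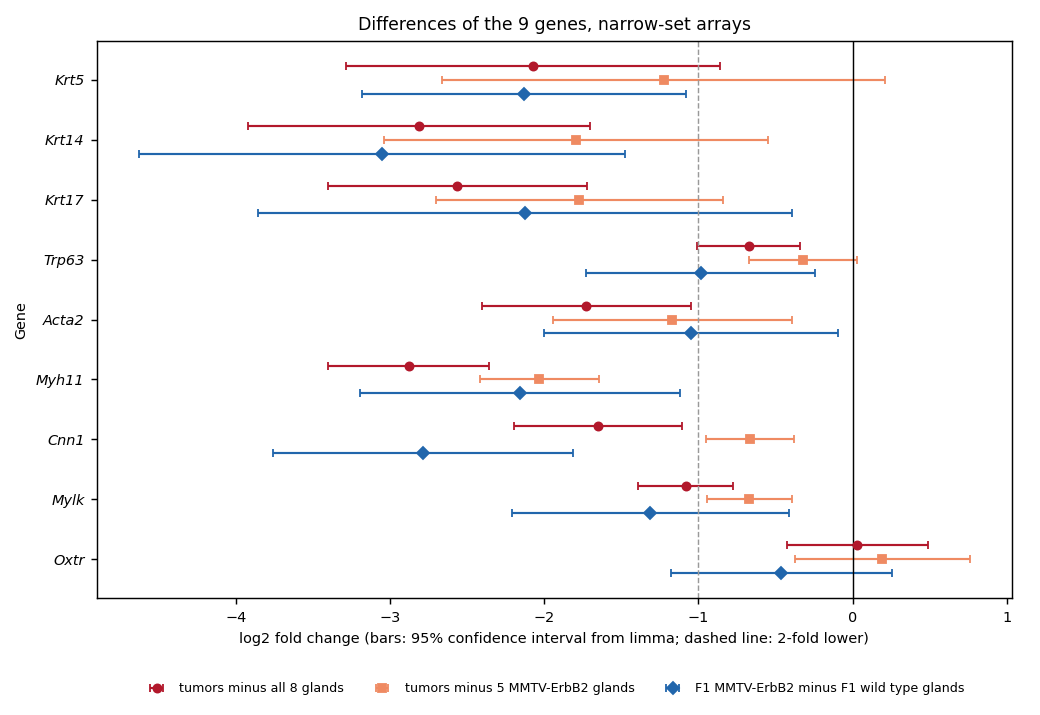
Log2 fold changes (x axis) of the 9 genes (y axis) in narrow-set arrays, with 95% confidence intervals from limma. Circles show tumors minus all 8 glands, squares tumors minus the 5 MMTV-ErbB2 glands and diamonds F1 MMTV-ErbB2 minus F1 wild type glands. For Cnn1 the difference between the kinds of gland (-2.79) is larger than that between tumors and MMTV-ErbB2 glands (-0.66), and the intervals of Oxtr include 0.

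Other genes of the basal cell and of its contraction were read in 4 lists, named by function. Of 12 further smooth muscle genes, 4 were called lower in tumors and 0 higher, with a median log2 fold change of -0.57: Tagln (transgelin) at -1.99, Synpo2 at -1.84, Myl9 (a myosin light chain) at -1.60 and Tpm2 (a tropomyosin) at -1.59. Cald1 and Tpm1, which other cells also express, were at 0.01 and 0.17. Myocd, the coactivator of serum response factor in smooth muscle, was at -0.38 and not called. Of 14 other basal genes, 5 were called lower, with a median of -0.78: Procr, the protein C receptor of basal and endothelial cells, at -4.07, Pdpn (podoplanin) at -2.97, the transcription factor gene Snai2 at -1.44, Cdh3 (P-cadherin) at -1.18 and Id4 at -1.14. Of these 5, Procr (1.40) and Pdpn (0.19) were higher in F1 MMTV-ErbB2 than in F1 wild type glands, where all 9 genes were lower. Snai2 (-0.17), Cdh3 (-1.79) and Id4 (-0.64) were lower there. In tumors minus glands, Krt6a and Krt6b, keratins of stressed and progenitor epithelium, were at 0.17 and 0.06. The hemidesmosome list, for the anchors that hold basal cells to the basement membrane, was mixed. Over all probe sets, 7.37% were called higher and 4.76% lower. Of the 9 measured genes of this list, the integrin genes Itgb4 (1.29) and Itga6 (1.10) and the tetraspanin gene Cd151 (1.02) were called higher, and the laminin gene Lama3 (-1.63) lower. Luminal cells express these integrins too. Of 10 measured genes of the pathway that leads to contraction from the oxytocin receptor, the G protein genes Gna11 (1.36) and Gnaq (1.19) were called higher, and Ppp1r12a, a subunit of the phosphatase that reverses the phosphorylation by Mylk, lower (-1.28). Some of the calls as higher rested on FVB MMTV-ErbB2 gland 3. Without it, 1 gene of the hemidesmosome list and 1 of the contraction list were called higher, as were 2207 of the 35556 probe sets. The lists were chosen with earlier results known, and over all probe sets the median was -0.09.

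Genes of the stroma, whose vessels and fibroblasts can also express contractile genes, moved as well. Of 7 endothelial genes, 7 were called lower in tumors (median -1.40), where 4.76% of all probe sets were. The mean level of the list was 7.22 to 9.34 in tumors and 8.16 to 9.88 in glands. Of 8 fibroblast genes, 5 were called lower (median -1.46), with 6.78 to 11.50 in tumors and 9.88 to 11.55 in glands. Of 9 genes of pericytes and vascular smooth muscle, 0 were called (limma, 5 at an unadjusted p under 0.05, median -0.01), with 8.01 to 8.86 in tumors and 8.17 to 8.59 in glands. Their part in the decrease of Acta2, Myh11, Cnn1 and Mylk was not tested. Of the luminal list, 4 of 8 genes were called higher in tumors (7.37% of all probe sets) and 1, Krt19, lower (-3.11). Of 5 adipocyte genes 1 was called lower (median -0.05), and 0 of the 7 skin and 0 of the 7 skeletal muscle genes were called by limma (2 and 0 at an unadjusted p under 0.05, medians 0.01 and -0.20).

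Acta2 and Cnn1 are both known targets of serum response factor, which binds CArG boxes, and both fell in tumors. Their promoters are shown because only 1 of them holds the box near its start. The sequences run 5′ to 3′ on the gene's strand over the 250 bases before and the 50 bases after the start (RefSeq, GRCm38.p6), at chr19:34255324-34255623 on the minus strand for Acta2 and chr9:22099003-22099302 on the plus strand for Cnn1. Capitals mark CArG-like matches, written CCNNNNNNGG with at least 5 of the 6 inner bases A or T, a pattern that reads the same on both strands.
Acta2: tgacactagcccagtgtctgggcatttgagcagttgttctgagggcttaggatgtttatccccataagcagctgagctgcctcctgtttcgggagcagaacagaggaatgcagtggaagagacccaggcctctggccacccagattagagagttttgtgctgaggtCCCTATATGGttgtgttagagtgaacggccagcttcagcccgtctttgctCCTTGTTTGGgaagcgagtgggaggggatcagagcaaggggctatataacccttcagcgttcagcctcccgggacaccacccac
Cnn1: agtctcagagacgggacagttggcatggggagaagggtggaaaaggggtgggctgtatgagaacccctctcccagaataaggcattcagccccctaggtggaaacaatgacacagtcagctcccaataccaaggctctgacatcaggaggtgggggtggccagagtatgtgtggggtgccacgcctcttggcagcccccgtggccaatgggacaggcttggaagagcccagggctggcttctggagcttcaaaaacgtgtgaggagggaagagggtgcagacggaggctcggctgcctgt
The Acta2 window held 2 matches, which begin 84 and 34 bases before the start, and the Cnn1 window held 0. Of the 6 genes with a promoter entry (Krt5, Krt14, Acta2, Cnn1, Mylk and Oxtr), only Acta2 had a match, as did 9.98% of the 32851 promoters of this length. A match is a string of letters, and its absence says only that these letters are not in this window.

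Across the backgrounds of the tumors, 1 of the 9 genes passed a test in 1 comparison. Between 22 F1 and 26 FVB tumors, 1 of the 9, Acta2, passed at an adjusted p under 0.05 (limma with the mouse as a random block), where 12.3% of all probe sets did. Acta2 had a lowest, median and highest level of 9.31, 10.44 and 12.34 in F1 tumors and 8.62, 9.99 and 10.86 in FVB tumors, so the groups overlapped over most of their range. The log2 difference was 0.60 (SE 0.214, limma adjusted p = 0.0478). The call was at the threshold: the adjusted p ran between 0.0376 and 0.102 over the alternatives and was over 0.05 in 5 of 7, among them 1 array per mouse (0.0737) and without 051T1 and 063T1, whose names have the form of F1BX names (0.0635). Between 140 F1BX and 26 FVB tumors, 0 of the 9 passed (limma, 1 at an unadjusted p under 0.05, background 6.74%), with Acta2 at 0.36 (95% confidence interval 0.05 to 0.67, adjusted p = 0.151) and Oxtr at -0.34 (-0.68 to 0.01, adjusted p = 0.253). Between F1BX and F1 tumors, 0 of the 9 passed in the wide set (limma, 0 at an unadjusted p under 0.05, background 3.65%), with differences from -0.24 for Acta2 to 0.06 for Trp63. In the narrow set, with 20 F1BX and 6 F1 tumors, 0 passed as well (limma, 0 at an unadjusted p under 0.05, background 0%, with 1929 of all probe sets at an unadjusted p under 0.05), with differences from -0.55 for Krt14 to 0.14 for Mylk. The comparisons within the wide set share their groups.

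The lowest of the 8 glands served as a limit, and a gene is called kept in a tumor where it was at or above that limit. The lowest gland was one of the MMTV-ErbB2 glands for each gene, and the limit crosses the array sets for the wide-set tumors, so the counts are given apart. Oxtr was at or above the limit of 7.00 in 18 of the 26 narrow-set and 83.5% of the 188 wide-set tumors. Acta2 followed in the wide set with 48 tumors (8 in the narrow set), Mylk with 30 (5), Krt17 with 26 (6), Trp63 with 19 (16), Cnn1 with 13 (8) and Krt5 with 12 (5). Krt14 was kept in 4 wide-set and 3 narrow-set tumors, and Myh11 in 3 wide-set and 0 narrow-set tumors. By background, Acta2 was kept in 36 of 140 F1BX, 8 of 22 F1 and 4 of 26 FVB tumors of the wide set. All 9 genes were kept together in 0 tumors of either set. The most kept by 1 tumor was 7, in 298T3. All 3 keratins were kept in 076T1, 182T1 and F1_26T1 of the narrow set and 035T1, 298T3 and P22T3 of the wide set, while the 4 contractile genes were kept together in 292T3 and 187T1 of the wide set. No tumor was in both lists. On its narrow-set array, 035T1R, the tumor 035T1 had Krt14 at 8.33, under the limit of 8.45, so its 3 keratins were kept on 1 of its 2 arrays.

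**Figure D3:**
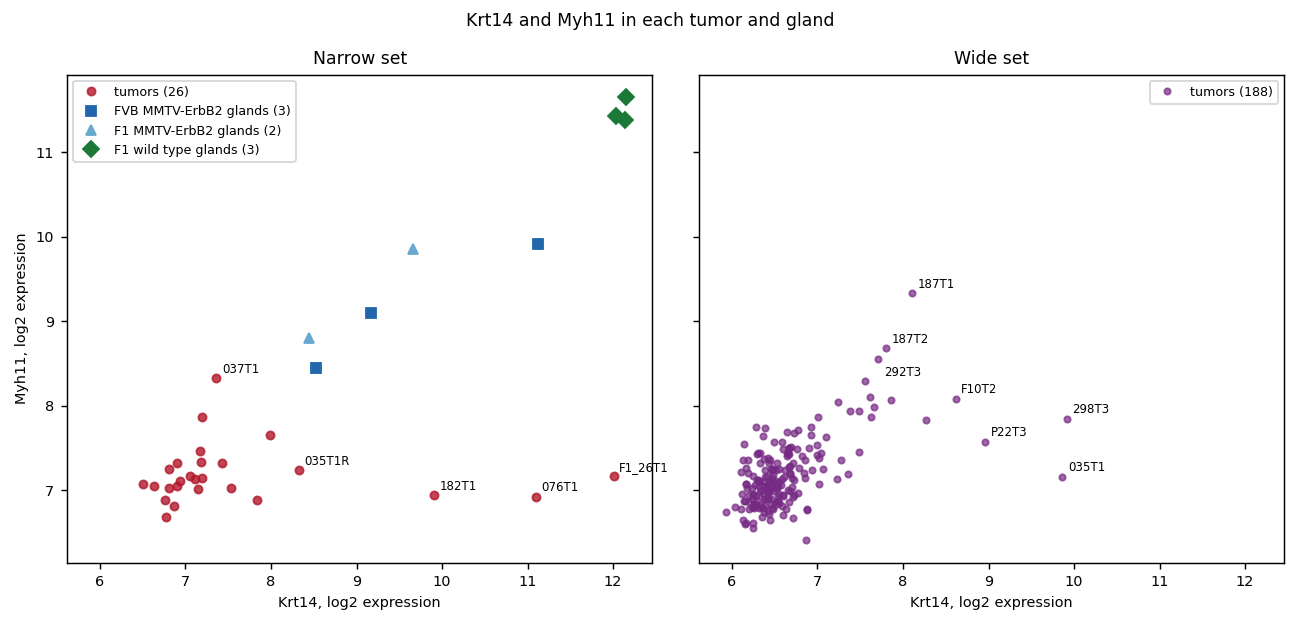
Log2 expression of Myh11 (y axis) against Krt14 (x axis) in each tumor and gland, narrow set on the left and wide set on the right. The wild type glands are high in both genes. In the narrow set, the tumor highest in Krt14 (F1_26T1 at 12.01) had Myh11 at 7.17, near the median tumor (7.12). In the wide set, the tumors highest in Krt14 had Myh11 at 7.85 (298T3), 7.16 (035T1), 7.57 (P22T3) and 8.08 (F10T2), with a median of 7.11. The tumor with the highest Myh11, 187T1 (9.34), had Krt14 at 8.10.

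The tumors with high keratins were followed one by one. In F1_26T1, Krt5, Krt14, Krt17 and Trp63 were at 12.28, 12.01, 9.10 and 8.38, with Krt5 above every gland and Krt14 above every MMTV-ErbB2 gland (11.12 at most), whereas Acta2 was at 9.84 and Myh11 at 7.17, both under every gland. The tumor 076T1 had 11.85, 11.09, 9.24 and 8.47 for Krt5, Krt14, Krt17 and Trp63, with Krt5 above every gland, and 6.93 for Myh11, under every gland. Both are among the 3 narrow-set tumors with low Erbb2, and both had high Krt6a, at 10.66 and 9.76 against a median of 7.08 among the narrow-set tumors. They also had the skin keratin genes Krt1 (7.62 and 8.03, median 5.87) and Krt10 (8.02 and 8.16, median 6.42) above the other tumors. Of other genes of skin differentiation, Krtdap was at 6.74 and 8.50 (median 5.82), and Lor (loricrin) at 5.84 and 6.56 (median 6.10), and 076T1 was the highest narrow-set tumor for both. In 182T1, Krt5 and Krt14 were at 10.36 and 9.91 with Erbb2 at 12.50, and Krt1 was at 6.27, Krt10 at 7.11, Krtdap at 6.19 and Lor at 6.37. In the wide set, 035T1 had Krt5, Krt14 and Krt17 at 10.03, 9.86 and 8.57, with Krt6a at 9.25, Krt1 at 8.23, Krt10 at 7.15, Krtdap at 6.73 and Lor at 5.23, against medians of 6.06, 5.61, 6.26, 4.82 and 5.64. Its array in the narrow set, 035T1R, had the keratins at 7.99, 8.33 and 7.34. The second tumor of this mouse, 035T2, had the keratins at 6.22, 6.53 and 5.95, near the medians of the set (6.08, 6.49 and 6.16). Skin genes were also high in the wide-set tumors 298T3, P22T3 and F10T2. In 298T3, Krt14 was at 9.92, and Krt1 was at 11.57, Krt10 at 10.70 and Lor at 9.61, against medians of 5.61, 6.26 and 5.64. In P22T3 Krt14 was at 8.96 with Krt1 at 10.94 and Lor at 9.15, and in F10T2 Krt14 was at 8.62 with Krt1 at 9.28 and Lor at 8.08. In 113T2, Krt5 was at 8.48 with Krt1 at 6.70 and Lor at 6.53, and in 187T2 Krt5 was at 8.32 with Krt1 at 7.33 and Lor at 6.67. In P21T4 and 266T2, with Krt5 at 8.12 and 8.11, and 064T2, with Krt17 at 8.59, Krt1 (5.71, 5.71 and 5.52) and Krt6a (6.05, 6.01 and 6.17) were near their medians. The skeletal muscle gene Acta1 and the adipocyte gene Adipoq were at 12.20 and 9.24 in P21T4 and 11.01 and 8.88 in F10T2. They were at 8.81 and 6.46 in 266T2 and 7.71 and 5.06 in 064T2, against medians of 7.43 and 5.39. The part of skin, muscle and fat in the keratin levels of these tumors was not tested. The other tumors of mouse 298 had Krt14 at 6.92 and 6.70.

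The tumors with high contractile genes were followed in the same way, and 187T2, named above for its Krt5, was among them. In the wide set, 187T1 and 187T2, from 1 mouse, had the highest Acta2, 12.79 in both, where the median was 10.18. Myh11 was at 9.34 and 8.68 and Cnn1 at 7.24 and 8.35, against medians of 7.11 and 6.12. Krt5 was at 8.08 and 8.32 and Krt14 at 8.10 and 7.80 in them, against medians of 6.08 and 6.49. The third tumor of the mouse, 187T3, had Acta2 at 9.92 and Myh11 at 6.69. Col1a1, the collagen gene of fibroblasts, was at 13.29 and 13.39 in 187T1 and 187T2 (median 10.53), Rgs5 of pericytes at 11.22 and 10.18 (median 9.78), and the skeletal muscle gene Acta1 at 7.33 and 11.87 (median 7.43). In 299T4 (12.73) and 268T1 (12.43) Acta2 was high, with Myh11 at 7.44 and 7.07 (median 7.11) and Col1a1 at 10.59 and 10.09 (median 10.53). Trp63 was at 7.93 and 7.39 there (median 6.76), and 299T4 had the highest Trp63 of the wide set. Krt5 was at 6.17 and 5.88 (median 6.08) and Krt14 at 6.33 and 6.17 (median 6.49). In these tumors Rgs5 was at 10.90 and 10.37 (median 9.78) and Myl9 at 10.96 and 10.33 (median 7.77). Tagln was at 8.51 and 8.44 there (median 8.34). In 292T3, with Myh11 at 8.55, Acta1 was at 13.56 and Adipoq at 11.04, the highest of the set for both. The part of stroma, muscle and fat in these levels was not tested. Oxtr was highest in 265T4, at 10.34, a tumor with the other 8 genes at or below their medians. The other tumors of that mouse, 265T1 and 265T2, had Oxtr at 9.39 and 8.82, and 168T1 had the lowest Oxtr, at 5.90.

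**Figure D4:**
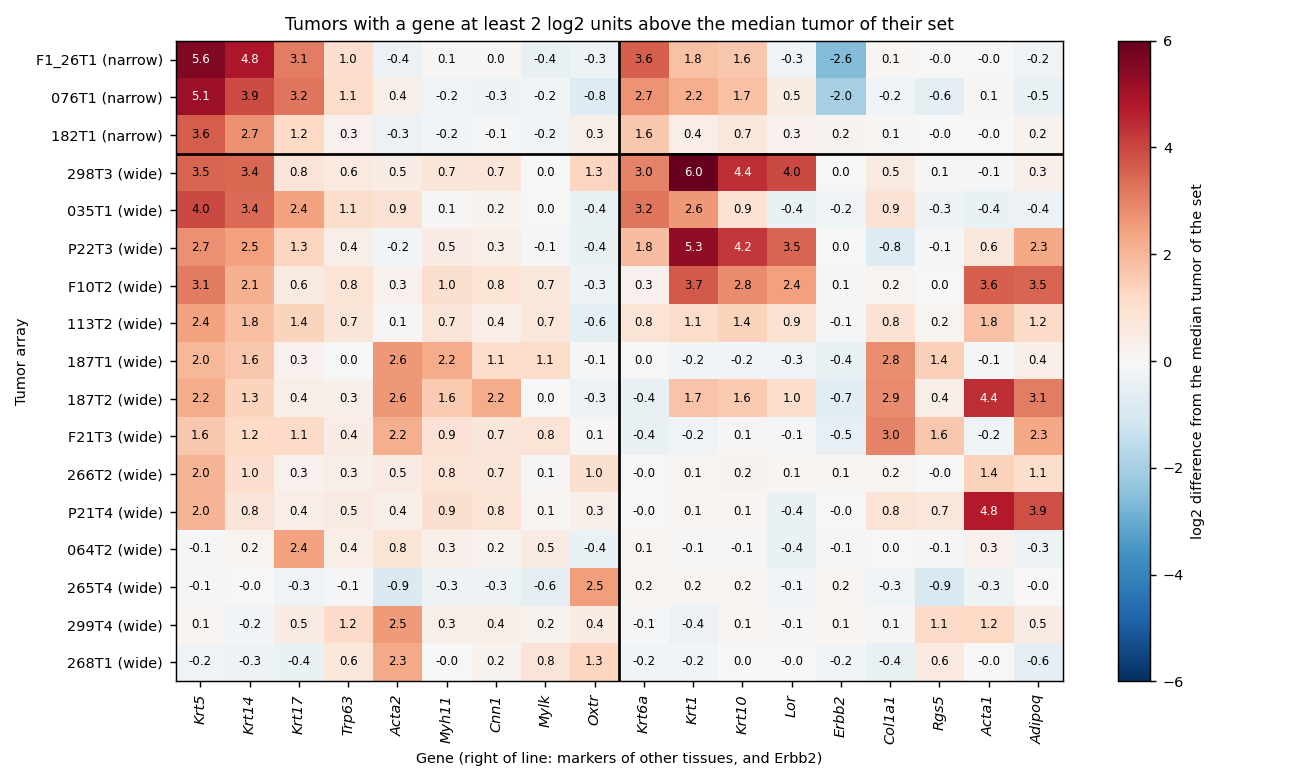
Log2 difference from the median tumor of the same array set (color and number) for the 17 tumors in which at least 1 of the 9 genes was at least 2 log2 units above that median (y axis), for the 9 genes and for Erbb2 and marker genes of other tissues (x axis). Tumors chosen by high values are shown as a description: high keratins occur with high Krt6a or skin genes in some tumors, such as F1_26T1 and 298T3, and without them in 266T2, P21T4 and 064T2, and high Acta2 occurs with high Col1a1 in 187T1, 187T2 and F21T3.

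The levels varied about as much within mice as over all arrays of these mice. Over the 38 mice with more than 1 tumor array in the wide set (95 arrays), the intraclass correlation ran from -0.14 for Krt17 to 0.17 for Acta2, as a description, and the SD within mice was 0.90 for Krt5 and 0.76 for Acta2, near the SD over arrays (0.87 and 0.83).

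The 9 genes varied together in part. Over the wide-set tumors with 1 from each mouse (the 188 less 57 further tumors of the same mice), 23 of the 36 pairs passed at an adjusted p under 0.05 by Spearman's rho (100000 permutations, two-sided, adjusted over the 36 pairs), each of them positive. The keratins Krt5 and Krt14 had a Pearson's r of 0.87 and a Spearman's rho of 0.53, and r was 0.73 without the 2 tumors farthest from the median of Krt5. Both coefficients had a permutation p of 1e-05, the smallest that these permutations can give (adjusted p = 4.00e-05 and 3.60e-05). The contractile genes were correlated with each other, with a rho of 0.60 for Myh11 and Cnn1 (r 0.73, 0.63 without 2 tumors), 0.59 for Acta2 and Myh11 (r 0.66, then 0.64) and 0.59 for Acta2 and Mylk (r 0.63, then 0.56). The 2 kinds of gene were joined by weaker correlations, such as Krt14 with Cnn1 (rho 0.48, r 0.52, then 0.64) and Krt5 with Myh11 (rho 0.42, r 0.47, then 0.60). For each of these 5 pairs the adjusted permutation p of rho was 3.60e-05. Trp63 was not called with Krt5, Krt14 or Krt17 in the wide set (rho 0.10, 0.17 and 0.12), and Oxtr was called with none of the other 8 (rho -0.17 to 0.13).

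In the narrow set (26 tumors of different mice), 9 of 36 pairs passed. These were the 6 pairs among the keratins and Trp63 and the 3 pairs among Acta2, Myh11 and Mylk. Krt5 and Krt14 had an r of 0.98 and a rho of 0.78 (adjusted permutation p = 3.60e-04 for rho; r 0.94 without 2 tumors), and Krt17 and Trp63 an r of 0.88 and a rho of 0.68 (0.00108; r 0.58). The keratins did not pass with Myh11 there, with a rho of 0.29 and an r of -0.02 for Krt5 (adjusted permutation p = 0.424 for rho), while Acta2 and Myh11 had a rho of 0.59 and an r of 0.60 (0.0104; r 0.64). The difference between the sets was not tested.

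Of 54 pairs of the 9 genes with 6 markers, 19 passed in the wide set and 5 in the narrow set (adjusted over the 54 pairs). Acta2 had a rho of 0.73 with Col1a1 in the wide set (r 0.75, 0.78 without 2 tumors; adjusted permutation p = 6.75e-05 for rho) and of 0.72 in the narrow set (r 0.86, then 0.77; 0.00378). With Rgs5, Acta2 had a rho of 0.56 and Myh11 of 0.58 in the wide set (r 0.56 and 0.55, then 0.51 and 0.49; 6.75e-05 for both), and Myh11 of 0.61 in the narrow set (r 0.77, then 0.59; 0.0187). Krt5 and Krt14 did not pass with Rgs5 or the endothelial gene Pecam1 in either set. Both, and Trp63, passed with Col1a1 in the wide set only. There the rho was 0.23 for Krt5, 0.24 for Krt14 and 0.27 for Trp63 (r 0.29, 0.31 and 0.23, adjusted permutation p = 0.0231, 0.0186 and 0.00882 for rho). With Adipoq in the wide set, Krt5 had a rho of 0.42 (r 0.32, then 0.43, adjusted permutation p = 6.75e-05 for rho) and Krt14 of 0.21 (r 0.22, then 0.30, 0.0454). With the skin gene Krt10, 3 of the 5 pairs of the narrow set passed: Krt14 (rho 0.60, r 0.92, 0.69 without 2 tumors; adjusted permutation p = 0.0193 for rho), Trp63 (rho 0.65, r 0.88, then 0.54; 0.0132) and Krt17 (rho 0.55, r 0.90, then 0.60; 0.0486). In the wide set Krt14 and Krt10 had an r of 0.54 but a rho of 0.14, and r was 0.09 without the 2 tumors farthest in Krt14, so the relation rested on them there. In the wide set, Trp63 had a rho of -0.34 with the luminal keratin gene Krt8 (r -0.35, then -0.33; adjusted permutation p = 3.15e-04) and Oxtr of -0.24 (r -0.23, then -0.22; 0.0186), whereas in the narrow set the rho was 0.10 and 0.13, and neither passed.

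**Figure D5:**
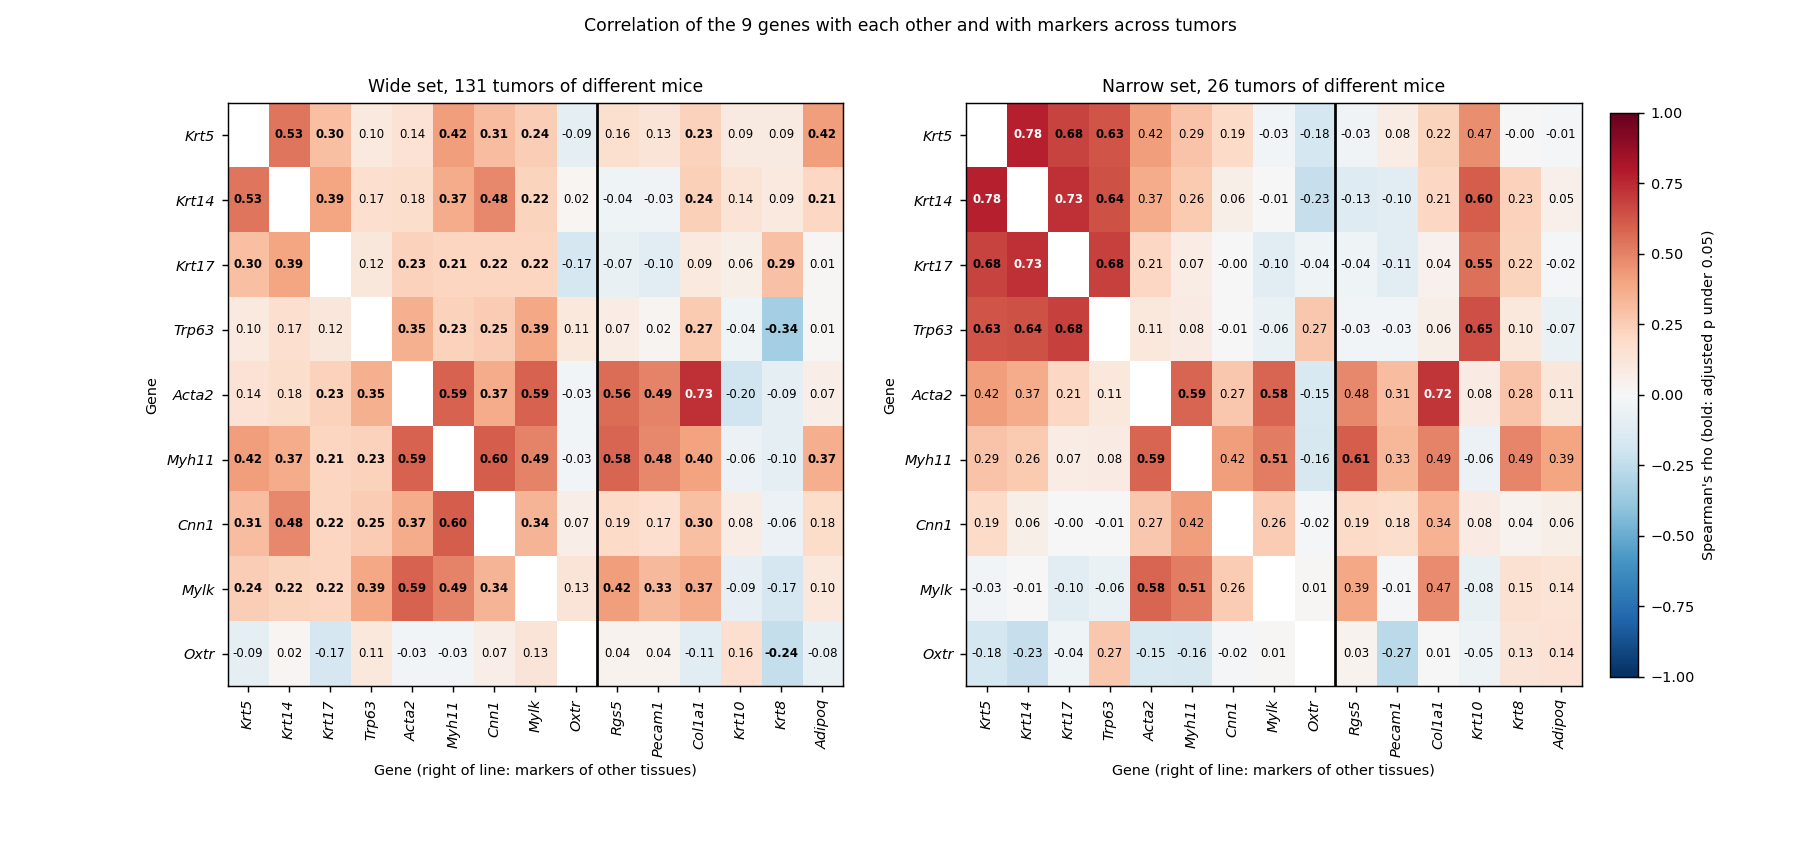
Spearman's rho (color and number) of the 9 genes (y axis) with each other and, right of the line, with 6 marker genes (x axis), over wide-set tumors (left, 188 less 57 further tumors of the same mice) and 26 narrow-set tumors (right) of different mice, with values of an adjusted permutation p under 0.05 in bold. Krt5 and Krt14 are at 0.53 and 0.78, Acta2 and Col1a1 at 0.73 and 0.72, and Oxtr has no bold value with the other 8 genes.

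The genes most like each of the 9, by Spearman's rho over all 188 wide-set tumors, are given as a description. For Krt5 they were Krt19 (0.68), Krt14 (0.65) and Hp (0.64), and for Krt14 they were Krt5, Alox12e (0.63) and Krt19 (0.61). For Krt17 they were Anxa8 (0.54), Ndrg1 (0.47) and Trim29 (0.45), and for Trp63 they were Sspn (0.54), Palld (0.52) and Lpcat1 (0.51). Acta2 had Tagln (0.90), Actg2 (0.84), a gene of another smooth muscle actin, and Ccn2 (0.83). Myh11 had Cnn1 (0.70) and also Aoc3 (0.64) and Trarg1 (0.64), both known from adipocytes. Cnn1 had Myh11, Krt14 (0.56) and Krt19 (0.54), and Mylk had Acta2 (0.58), Pde1b (0.55) and Myl9 (0.54). For Oxtr they were Wnt5b (0.65), Irs1 (0.62) and Cp (0.60), none of them a gene of the lists of basal or contractile genes.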

How the data were processed

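Expression was measured on 222 arrays, 214 of tumors and 8 of normal glands. The deposited values were log2 expression levels, normalized by the authors with the robust multiarray average (RMA) in Expression Console, for 35556 probe sets, of which 21789 carried 1 gene symbol in the platform annotation, 1621 several and 12146 none. They ranged from 2.25 to 14.8. Precision is limited by how many arrays each group has, and no detection calls came with the values.

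Groups followed the labels. Arrays were divided at an interquartile range of 2.8 into a narrow and a wide set. Linear models were fitted with limma 3.58.1 (R 4.3.3) over all probe sets and adjusted by Benjamini-Hochberg: tumors against glands with an FDR of 0.005 or less together with at least a 2-fold difference, as in the methods of the study, and the other comparisons at an adjusted p under 0.05. For tumors of several mice the mouse was a random block. Correlations used 1 array per mouse and 100000 permutations (Python 3.11.15, scipy 1.17.1), without the 2 farthest tumors as a check. The genes named were the 9 genes, those of the function and cell type lists, Erbb2 and the 3 genes most like each of the 9; other genes were named only as values of single tumors. The genes and lists were chosen with earlier results of these data known. Some genes of the lists were not analysed here. Alternatives were all arrays, the array set as a term, quantile normalization, a filter on low signal (over 6 in at least 8 arrays, 29949 probe sets), array weights, other selections of arrays and each gland left out. Leaving out the 3 narrow-set tumors of lowest Erbb2, or 035T1 and 187T2, was chosen after seeing the data. The significance analysis of microarrays was not run. The scripts were tested on simulated data.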

Additional observations from a re-analysis of the deposited data

Results flagged for a closer look

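In 2 of the 18 groups of arrays tested for an array far from the others (the 9 genes in the 6 narrow-set F1 tumors and in the 8 glands), 1 tumor lay far above its group. Chance flags about 1 in 20 groups. Krt5 was at 12.28 in F1_26T1 and at most 8.16 in the other 5 narrow-set F1 tumors, a gap of 0.689 of the range. Krt14 was at 12.01 in F1_26T1 and at most 7.98 in the others, a gap of 0.782 of the range. Both values come from the same array, in which Erbb2 was 9.72.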

How the results depend on the processing

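Of the 7 genes called between narrow-set tumors and glands, 2 were called against MMTV-ErbB2 glands only and 3 with F1 arrays only, and 5 to 7 with each gland left out in turn (5 without wild type gland 3, which lost Krt5 and Mylk). Krt5 was also lost with array weights (adjusted p = 0.0685 from limma) and without the arrays 035T1R and 246T1R (0.00593). Trp63 passed with all arrays (-1.18), but not with the array set as a term. The Oxtr difference, not called, turned to -0.00791 with quantile normalization, -0.0229 with F1 arrays only, -0.0377 without F1 MMTV-ErbB2 gland 1 and -0.0593 without FVB MMTV-ErbB2 gland 1, and ran between -0.0593 and 0.0923 (without wild type gland 3) with each gland left out. The 1 call between F1 and FVB tumors, Acta2, became 0 with all tumor arrays, with the array set as a term, with 1 array per mouse, with quantile normalization and without 051T1 and 063T1. Between F1 MMTV-ErbB2 and wild type glands, 0 to 6 genes were called with each gland left out, with 6 only without FVB MMTV-ErbB2 gland 3. Deviations of glands with the same replicate number had correlations between -0.19 and 0.39, and those with different numbers between -0.39 and 0.33. These values cannot decide whether the numbers pair the glands, since the deviations of the 2 F1 MMTV-ErbB2 glands mirror each other. With a replicate block, 0 genes were called between F1 MMTV-ErbB2 and wild type glands (Krt14 at -2.66). The same block gave 0 calls between FVB and F1 MMTV-ErbB2 glands. Between FVB and F1 MMTV-ErbB2 glands, 0 were also called with any gland left out. The 3 wide-set tumors that kept Myh11 became 1 with quantile normalization or with the second lowest gland as the limit, and the 3 that kept the keratins became 1 with that limit. The causes were not tested. The correlated pairs numbered 23 to 29 in the wide set and 8 to 10 in the narrow set. The other main counts stayed within 1.5 times, in 65 repeats.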
